A study of Mus musculus with 9 samples.

Results

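The SoxB and SoxC genes are 7 of the 47729 genes in the FPKM table. They were chosen by gene name, and comprise Sox1, Sox2 and Sox3 (SoxB1), Sox21 (SoxB2) and Sox4, Sox11 and Sox12 (SoxC). All 7 genes passed the filter on low values, a mean FPKM of at least 0.1 over the 9 libraries, which 17951 genes passed. FPKM counts sequenced fragments scaled to the length of the transcript and to the size of the library, so levels can be compared between genes.

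The libraries were made from polyadenylated RNA of mouse ESCs that carry a transgene for a forced E2A homodimer, in which a FLAG-tagged E47 (a product of Tcf3) is tethered by a flexible linker to another E47. The transgene sits upstream of Hprt and is switched on by doxycycline (dox). All cells were kept in LIF/serum, and dox was given at 1 µg/ml for 18 h or 24 h, with untreated cells of the same line (0 h) as the control and 3 replicates at each time. Cells that lack the transgene and cells that carry it without dox for a further day were not analysed here, so that dox and the time in culture cannot be told apart from the transgene. Each library held from 22028363 to 26471569 reads on genes. Tcf3, from which E47 is made, was at 39.1±1.80 FPKM without dox (mean±s.d., n=3) and rose to 110±5.52 and 102±7.55 FPKM after 18 h and 24 h of dox, and the libraries at both times with dox are all above those at 0 h. The cells at 0 h held the defining RNAs of ESCs, with Pou5f1 at 371±53.3 FPKM and Nanog at 40.6±5.51 FPKM.

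Sox proteins bind DNA through an HMG box, a domain that bends the double helix, and members of one subgroup have nearly the same box. SoxB1 proteins are activators that partner POU factors: Sox2 with Oct4 (Pou5f1) maintains ESCs, and Sox1, Sox2 and Sox3 keep neural progenitors proliferating. Sox1 is the SoxB1 gene whose onset in the embryo marks the neural plate. The SoxB2 protein Sox21 binds like SoxB1 proteins but carries a repression domain and counteracts them as neurons form, whereas SoxC proteins act mainly in later progenitors and new neurons, where they switch on neuronal genes.

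To show how alike the genes are, and over which bases reads of one gene could also match another, the start of the HMG box coding sequence is given for each gene, read from the GRCm38 transcripts of GENCODE M21. Each run holds 60 bases, 5′ to 3′ on the coding strand, and capitals mark bases that differ from Sox1.
Sox1: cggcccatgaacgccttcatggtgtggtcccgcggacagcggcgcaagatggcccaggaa
Sox2: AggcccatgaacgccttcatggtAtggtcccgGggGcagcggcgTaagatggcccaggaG
Sox3: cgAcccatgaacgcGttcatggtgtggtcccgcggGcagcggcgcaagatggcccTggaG
Sox21: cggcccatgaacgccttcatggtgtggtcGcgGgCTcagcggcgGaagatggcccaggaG
Sox4: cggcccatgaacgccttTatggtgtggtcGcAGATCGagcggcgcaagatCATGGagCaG
Sox11: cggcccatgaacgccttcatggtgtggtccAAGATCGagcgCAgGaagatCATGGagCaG
Sox12: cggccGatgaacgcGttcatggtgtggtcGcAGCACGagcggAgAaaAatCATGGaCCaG

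In these runs Sox2, Sox3 and Sox21 differed from Sox1 at 6, 5 and 6 bases, and Sox4, Sox11 and Sox12 at 15, 17 and 20. Over the whole box of 79 residues, the protein sequences were 89.9% to 96.2% identical within SoxB1 and 86.1% to 92.4% within SoxC. Sox21 was 88.6% to 92.4% identical to the SoxB1 boxes. Between SoxB and SoxC the identity was 59.5% to 68.4%. Over the whole transcripts, the longest stretch of bases shared without a mismatch was 48, between Sox4 and Sox11, and for Sox1 and Sox3 it was 45. Where in the transcripts these stretches lie was not recorded. How reads that align to several places were counted is not given in the sources used here, so a small share of the reads in shared stretches could be split between genes.

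In ESCs without dox the levels of the 7 genes went from 0.351 to 88.9 FPKM. Sox2 was the highest at 88.9±8.71 FPKM and lay above 96.6% of the genes tested. The SoxC genes followed, with Sox4 at 14.9±1.09, Sox12 at 12.0±1.63 and Sox11 at 7.56±0.740 FPKM. Sox3 stood at 3.74±0.856 FPKM. Sox21 (0.494±0.148 FPKM) and Sox1 (0.351±0.179 FPKM) were the lowest. Each neighbour in this order was separated from the next in all 3 libraries, except Sox21 and Sox1, whose libraries overlapped. At 24 h the order of the first 5 genes was unchanged, but Sox1 had passed Sox21 and its libraries overlapped those of Sox3 and of Sox21.

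**Figure D1:**
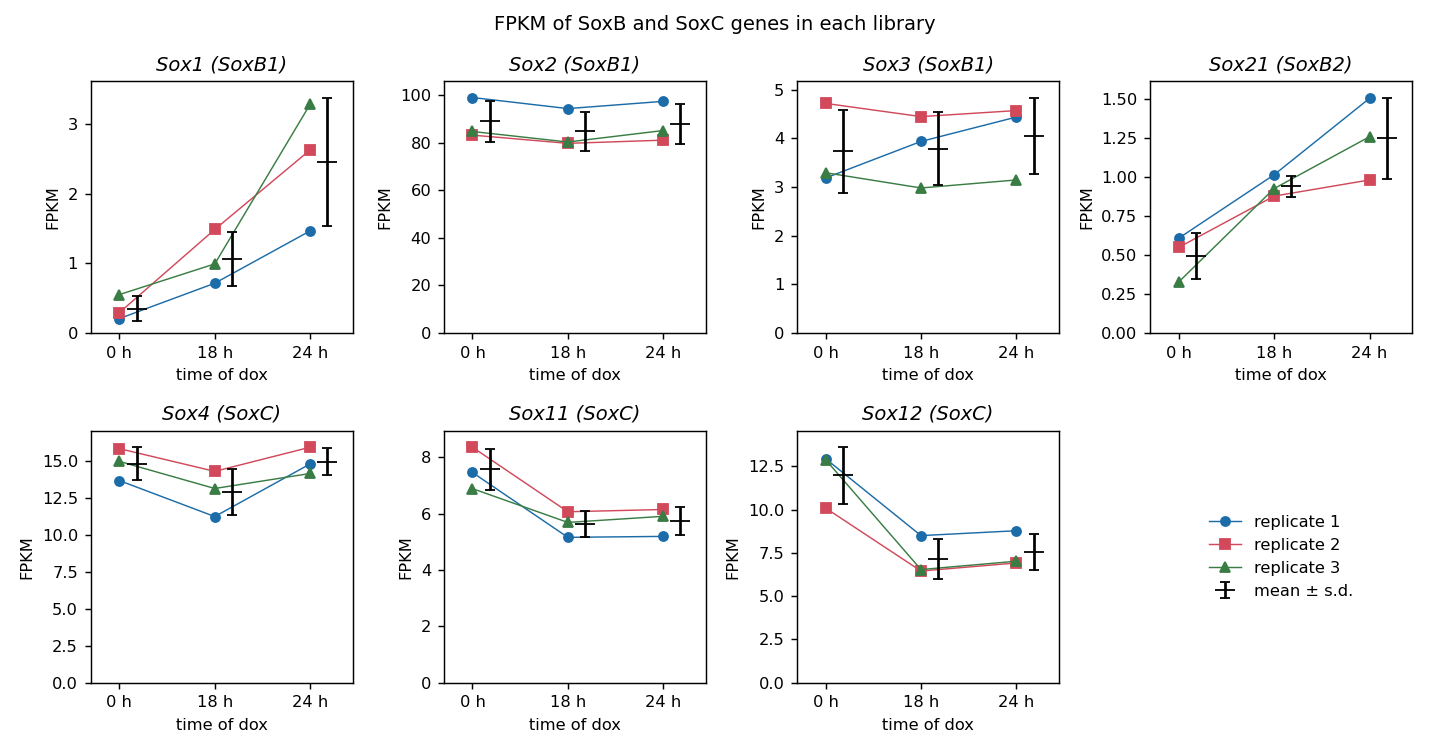
FPKM (linear axis from 0) of each SoxB and SoxC gene against the time of dox, with 1 point per library, lines joining libraries of the same replicate number and black bars for the mean±s.d. (n=3). Sox1 and Sox21 are above their 0 h libraries at both times, Sox11 and Sox12 are below, and the libraries of Sox2, Sox3 and Sox4 overlap.

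The first comparison asked which of these genes had changed after 18 h of E2A homodimer expression. Sox12 fell from 12.0±1.63 to 7.16±1.16 FPKM and Sox11 from 7.56±0.740 to 5.64±0.456 FPKM, both by less than 2-fold. Sox1 and Sox21 were higher in all 3 libraries at 18 h than in any at 0 h, but just missed the adjusted threshold. A gene was called at an adjusted p of at most 0.05 by limma on log2(FPKM+0.1) and a change of at least 2-fold. By this rule none of the 7 genes was called higher or lower at 18 h, against 1.33% and 0.724% of all genes tested. Without the minimum fold, 0 were called higher and 2 lower, against 4.27% and 3.72% of all genes. At an unadjusted p under 0.05 limma gave 4 genes (Sox1, Sox21, Sox11 and Sox12), against 25.4% of all genes. edgeR and DESeq2 on the recovered reads each gave an adjusted p under the threshold for the same 4, against 10.3% and 12.8% of all genes, with Sox1 past 2-fold as well, against 1.99% and 1.82% called higher. With the replicate number as a block, limma called 1 gene higher at 18 h, Sox1, against 1.71% of all genes.

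The next comparison was between 24 h and 0 h, with the same control libraries. Sox1, the early neural gene, rose 7.0-fold in mean FPKM, and Sox21 rose 2.52-fold. Sox12 and Sox11 remained below their 0 h levels. The 2 genes called higher compare with 2.07% of all genes tested, and no gene was called lower, against 0.836% of all genes. Without the minimum fold 2 were higher and 2 lower, against 6.52% and 5.11% of all genes. The count of 0 for genes lower by 2-fold also held with edgeR and DESeq2, where 1.25% and 1.06% of all genes were lower. Of the 4 genes with an unadjusted limma p under 0.05, against 28.2% of all genes, 2 were the lower ones, Sox11 and Sox12. Between 18 h and 24 h no member was called in either direction by limma, edgeR or DESeq2, against 0.0223% of all genes by limma. Of 19210 genes, edgeR called 0 without the replicate block, and 7 higher and 2 lower with it. Sox1 was among the genes called higher with the block (adjusted p=0.000776 by edgeR). At an unadjusted p under 0.05, limma gave 2 genes, Sox1 and Sox4, both higher at 24 h, against 5.59% of all genes.

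**Figure D2:**
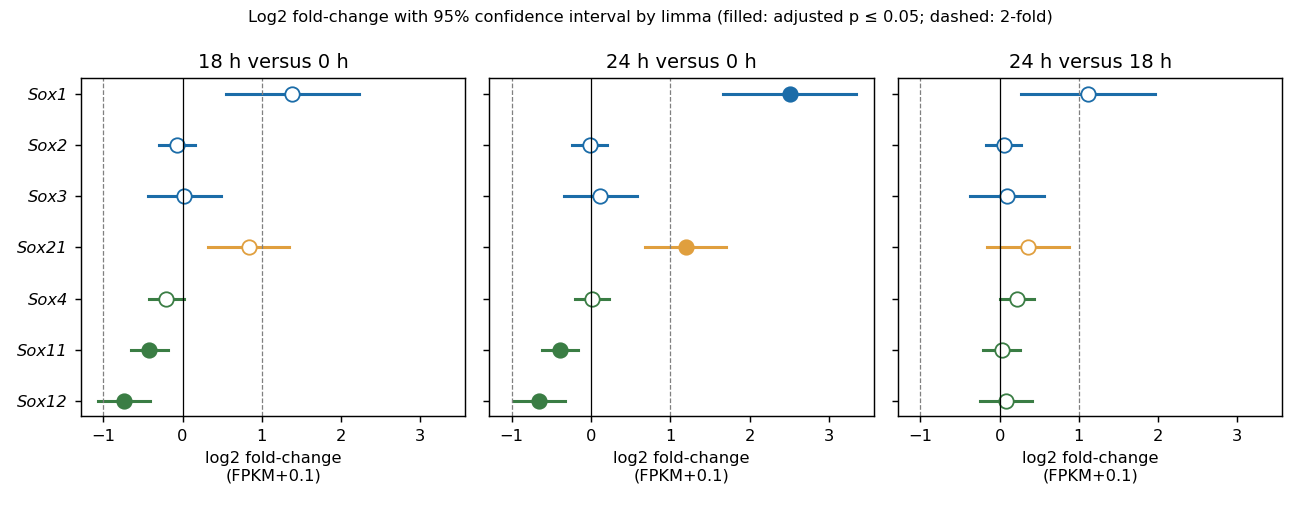
Log2 fold-change of each gene on the log2(FPKM+0.1) scale in the 3 comparisons, with 95% confidence intervals by limma. Filled points have an adjusted p of at most 0.05 and dashed lines mark 2-fold. At 24 h versus 0 h the points of Sox1 (2.50) and Sox21 (1.19) lie beyond the upper line, and those of Sox11 (-0.39) and Sox12 (-0.65) lie between 0 and the lower line.

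Sox1 (ENSMUSG00000096014) is a gene of 1 exon at chr8:12395295-12400126 on the plus strand of GRCm38. Its level in replicates 1, 2 and 3 was 0.208, 0.293 and 0.552 FPKM at 0 h. At 18 h it was 0.715, 1.49 and 0.992 FPKM. At 24 h it reached 1.47, 2.63 and 3.28 FPKM. The 3 time points ascend without overlap between 0 h and either later time, while the highest library at 18 h lies just above the lowest at 24 h. These values rest on 24 to 58 reads at 0 h, 79 to 179 at 18 h and 180 to 432 at 24 h.

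The log2 fold-change of Sox1 at 24 h was 2.50 (s.e. 0.37, 95% interval 1.66 to 3.35, adjusted p=0.00496 by limma), larger than that of 99.8% of the genes tested. The pseudocount lowers this value for so low a gene, and edgeR on the recovered reads gave 2.81 (adjusted p=0.000459). Within replicate numbers the FPKM ratio was 7.04, 8.96 and 5.95. The 18 h value was a log2 fold-change of 1.39 (interval 0.54 to 2.23) with an adjusted p of 0.0541 by limma, and when the fit included the replicate block the adjusted p was 0.00754, which changed the call. The ratios within replicate numbers at 18 h were 3.43, 5.07 and 1.80, the last in the replicate whose 0 h level was highest. From 18 h to 24 h Sox1 was higher in each of the 3 replicate numbers (2.05-, 1.77- and 3.31-fold), with a log2 difference of 1.12 (interval 0.28 to 1.96, adjusted p=0.857 by limma). Here too the block mattered, in edgeR, where the adjusted p was 0.000776, while limma with the block gave 0.219. The study chose these times with reference to Sox1 measured by qRT-PCR in the same experiments, so the direction of Sox1 is not independent of how the samples were picked.

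Sox1ot, a noncoding RNA of the same strand whose span contains Sox1, had 0, 4 and 5 reads at 0 h. It had 9, 13 and 11 at 18 h, and 12, 17 and 27 at 24 h. Its libraries with dox were thus all above those without, but it was below the filter on FPKM and its reads are few beside those of Sox1.

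The 3 genes with mean FPKM of at least 1 whose log2 levels followed Sox1 most closely over the 9 libraries, of 11893 searched, were Heatr5a (Pearson r=0.986), Pja2 (0.983) and Lrp2 (0.980). Pja2, a ubiquitin ligase, was at 6.37 FPKM without dox and 10.4 at 24 h. Lrp2, the endocytic receptor megalin of the neuroepithelium, had mean levels of 19.8, 26.2 and 33.1 FPKM at the 3 times in order. These r values describe 9 libraries that share their time points and were picked as the highest of all genes.

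Sox2 (ENSMUSG00000074637, 1 exon, chr3:34650405-34652461, plus strand) is the SoxB1 gene that ESCs depend on. Its replicates stood at 98.9, 83.1 and 84.7 FPKM at 0 h. At 18 h they were 94.3, 79.7 and 80.2 FPKM. At 24 h they were 97.3, 81.0 and 85.1 FPKM. Replicate 1 was the highest at every time, and the spread between replicates exceeded the distance between time points. Within each replicate number the 18 h library was slightly below the 0 h library (ratios 0.953, 0.958 and 0.948). The log2 fold-change at 24 h was -0.02 (interval -0.24 to 0.21, adjusted p=0.929 by limma), so a change of the size of that of Sox21 lies outside the interval. At 18 h it was -0.07 (interval -0.29 to 0.15), and under quantile normalization both values turned positive. With the replicate block the interval at 18 h was -0.14 to 0.0045 (adjusted p=0.158 by limma). Sox2ot, a noncoding RNA whose span holds Sox2 on the same strand, remained between 0.119 and 0.268 FPKM.

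Sox3 (ENSMUSG00000045179, 1 exon, chrX:60891366-60893430, minus strand) acts with Sox2 in epiblast and neural progenitors. Its levels were 3.19, 4.72 and 3.30 FPKM at 0 h. They were 3.94, 4.45 and 2.98 at 18 h, and 4.44, 4.57 and 3.15 at 24 h. In replicate 1 it was 1.39-fold higher at 24 h than at 0 h, and in replicates 2 and 3 the ratios were 0.969 and 0.955. The log2 fold-change at 24 h was 0.12 (interval -0.35 to 0.58, adjusted p=0.751 by limma), an interval that includes changes of up to 1.50-fold. At 18 h it was 0.02 (interval -0.44 to 0.49), and under quantile normalization this value turned negative.

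SoxB1 RNA as a whole was therefore mostly Sox2, and its sum lay between 84.2 and 103 FPKM over all libraries. Sox2 made up 95.5%±1.19 of it at 0 h and 93.0%±1.22 at 24 h. The share of Sox1 was 0.387%±0.215 without dox, 1.21%±0.508 after 18 h and 2.66%±1.12 after 24 h. Relative to Sox3, the other minor member, Sox1 stood at a ratio of 0.0983±0.0599 at 0 h and 0.649±0.362 at 24 h, and in replicate 3 at 24 h the 2 genes were at a ratio of 1.04.

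**Figure D3:**
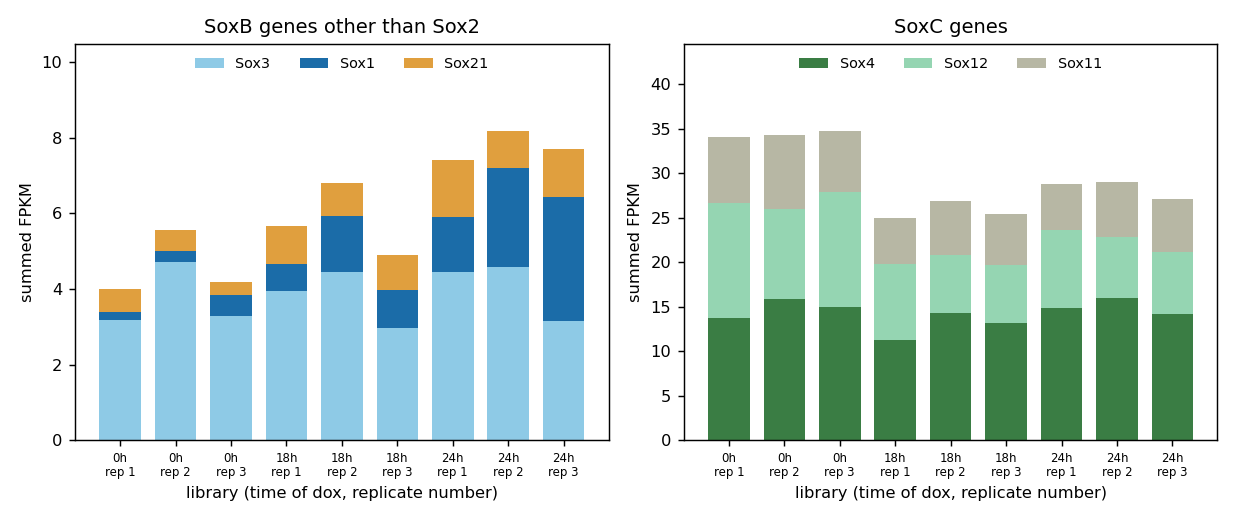
Stacked FPKM in each library, at left of Sox3, Sox1 and Sox21 and at right of the SoxC genes Sox4, Sox12 and Sox11 (both axes linear from 0). The Sox1 layer is thin at 0 h and thick at 24 h, and the SoxC stacks are taller in every library at 0 h (34.1 to 34.8) than at 18 h or 24 h (24.9 to 29.0).

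Sox21 (ENSMUSG00000061517, 1 exon, chr14:118233232-118237030, minus strand) was at 0.607, 0.548 and 0.327 FPKM at 0 h. At 18 h it was at 1.01, 0.877 and 0.925 FPKM. At 24 h it was at 1.50, 0.980 and 1.26 FPKM. All libraries with dox are above all those without, and those of 18 h and 24 h overlap. The reads behind these values numbered 27 to 55 at 0 h, 83 to 88 at 18 h and 95 to 145 at 24 h.

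The log2 fold-change of Sox21 at 24 h was 1.19 (s.e. 0.23, 95% interval 0.68 to 1.71, adjusted p=0.0126 by limma). Replicate 3, with the lowest level at 0 h, had the largest ratio, 3.84, against 2.47 and 1.79 in replicates 1 and 2. The 2-fold call was lost without 0 h replicate 3 (log2 fold-change 0.97) and without 24 h replicate 3 (adjusted p=0.0528 by limma). The 18 h value was a log2 fold-change of 0.84 (interval 0.33 to 1.35, adjusted p=0.0547), and the block lowered the adjusted p to 0.0235 without bringing the gene past 2-fold. From 18 h to 24 h the log2 difference was 0.36 (interval -0.15 to 0.87, adjusted p=0.955 by limma). Relative to Sox2, which it is known to counteract, Sox21 stood at 0.553%±0.146 of the FPKM without dox, 1.11%±0.0399 after 18 h and 1.41%±0.177 after 24 h.

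Gm4675, a lincRNA on the opposite strand that overlaps the 5′ part of Sox21, had 1 to 2 reads at 0 h, 4 to 5 at 18 h and 6 to 11 at 24 h. Following Sox21 most closely over the 9 libraries were Syt13 (r=0.969), Tiam1 (0.969) and Rasgrp1 (0.965). Syt13, a synaptotagmin, had mean levels of 2.89, 4.81 and 5.58 FPKM in order of time.

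Sox4 and Sox11 promote the differentiation of neurons, and Sox12 is a weaker activator of the same sites. Among them, Sox4 (ENSMUSG00000076431, 1 exon, chr13:28948919-28953713, minus strand) was the highest. It stood at 13.7, 15.9 and 15.0 FPKM at 0 h. At 18 h it was at 11.3, 14.3 and 13.2 FPKM, and at 24 h at 14.8, 16.0 and 14.2. In each replicate number the 18 h library was the lowest of the 3 times, but the libraries of the times overlap. Its log2 fold-change came to -0.20 at 18 h (interval -0.42 to 0.01, adjusted p=0.224 by limma) and 0.01 at 24 h (interval -0.20 to 0.23), and the latter was negative under median centring. With the block the adjusted p at 18 h was 0.0541 by limma and 0.0188 by edgeR. Gm26735, a lincRNA on the other strand across the 3′ end of Sox4, had 4 to 14 reads per library, against at least 1235 for Sox4.

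Sox11 (ENSMUSG00000063632, 1 exon, chr12:27334264-27342574, minus strand) was at 7.46, 8.35 and 6.88 FPKM at 0 h. It was at 5.16, 6.06 and 5.69 at 18 h, and at 5.19, 6.14 and 5.90 at 24 h. Every library with dox is below every library without. Its log2 fold-change came to -0.42 at 18 h (s.e. 0.10, interval -0.65 to -0.19, adjusted p=0.0404 by limma) and -0.39 at 24 h (interval -0.62 to -0.16, adjusted p=0.0408). These calls were near the threshold, and at each time the adjusted p exceeded 0.05 in 7 of the 9 fits that leave out 1 library, reaching 0.113 at 18 h without 18 h replicate 3 and 0.101 at 24 h without 24 h replicate 1. It also exceeded 0.05 with no filter on FPKM (0.0612 at 18 h and 0.0608 at 24 h) and with no intensity trend (0.0663 and 0.0650). The same held with only the times compared in the fit (0.0800 and 0.0797). In contrast, edgeR gave 0.0144 and 0.0149, DESeq2 gave 0.00201 and 0.00271, and limma with the block gave 0.00770 and 0.00785.

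Sox12 (ENSMUSG00000051817, 3 exons in 2 annotated transcripts, chr2:152393611-152398063, minus strand) was at 12.9, 10.1 and 12.9 FPKM at 0 h. It was at 8.49, 6.45 and 6.54 at 18 h, and at 8.78, 6.92 and 7.02 at 24 h. No library with dox reached the lowest at 0 h. Its log2 fold-change came to -0.74 at 18 h (s.e. 0.15, interval -1.06 to -0.41, adjusted p=0.0187 by limma) and -0.65 at 24 h (interval -0.98 to -0.32, adjusted p=0.0227). By the means, the level fell by 40.2% at 18 h and by 36.7% at 24 h. In 4 of the 9 fits that leave out 1 library the adjusted p was above 0.05 at each time, up to 0.0772 at 18 h without 18 h replicate 2 and 0.0879 at 24 h without 24 h replicate 3. With only the times compared in the fit it was 0.0503 at 18 h. With the block it was 0.00203 at 18 h and 0.00230 at 24 h.

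Between 18 h and 24 h Sox11 and Sox12 had log2 differences of 0.03 (interval -0.20 to 0.26) and 0.08 (interval -0.25 to 0.41). Summed, SoxC RNA came to 34.4±0.343 FPKM without dox, and to 25.7±1.00 and 28.3±1.05 FPKM after 18 h and 24 h. The share of Sox4 in this sum was 43.2%±3.03 at 0 h and 52.9%±1.83 at 24 h, and that of Sox12 34.8%±4.69 and 26.7%±3.40. Sox12 was followed most closely by Eif2s2 (r=0.996), a subunit of translation initiation factor 2, by the Mediator subunit gene Med30 (0.993) and by Rpl3 (0.990), a protein of the large ribosomal subunit. Sox11 was followed by the haem oxygenase gene Hmox1 (0.960), with 95.4 FPKM without dox and 69.0 and 66.0 FPKM after 18 h and 24 h. In bulk RNA of this kind, fewer cells with a transcript and less of it per cell cannot be told apart, and the same holds for the low levels of Sox1 and Sox21.

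Over the 9 libraries the log2 levels of Sox1 and Sox21 had a Pearson r of 0.69, and those of Sox11 and Sox12 of 0.58. Sox1 and Sox12 had an r of -0.79, and Sox21 and Sox11 of -0.76. These are descriptions of 9 libraries that share their 3 time points, and Sox2 had an r between -0.38 and 0.55 with each of the other genes.

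Promoter sequences were looked at because the induced E47 protein binds E boxes (CANNTG). RefSeq start sites on GRCm38.p6 were used for the 6 genes other than Sox3. The windows shown hold up to 250 bases before the start, 5′ to 3′ on the strand of the gene, for the gene that rose and has its window outside the annotated transcript and for both genes that fell. Capitals mark E boxes.
Sox21: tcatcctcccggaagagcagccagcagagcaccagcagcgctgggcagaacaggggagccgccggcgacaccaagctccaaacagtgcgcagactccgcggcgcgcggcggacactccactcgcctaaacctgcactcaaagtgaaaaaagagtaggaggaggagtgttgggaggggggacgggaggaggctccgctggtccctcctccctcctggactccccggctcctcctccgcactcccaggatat
Sox12: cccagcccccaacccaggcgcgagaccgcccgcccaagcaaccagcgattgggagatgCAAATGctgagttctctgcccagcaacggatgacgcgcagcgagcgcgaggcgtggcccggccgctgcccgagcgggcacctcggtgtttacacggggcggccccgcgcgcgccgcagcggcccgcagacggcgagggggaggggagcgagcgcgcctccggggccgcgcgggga
Sox11: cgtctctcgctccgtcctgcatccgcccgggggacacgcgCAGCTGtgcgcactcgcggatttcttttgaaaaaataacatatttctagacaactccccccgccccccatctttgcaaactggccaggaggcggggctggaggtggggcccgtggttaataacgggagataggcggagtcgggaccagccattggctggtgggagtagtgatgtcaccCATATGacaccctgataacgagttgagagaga

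The Sox21 window (chr14:118237031-118237280, minus strand) held no E box. The Sox12 window (chr2:152398064-152398296, minus strand) held 1, which begins at base -192 from the start and overlaps an octamer (ATGCAAAT), the sequence that POU factors bind, that begins at base -195. The Sox11 window (chr12:27342719-27342968, minus strand) held 2, at bases -210 and -32, of which the first is CAGCTG. In the windows of the other genes Sox4 had 1 (CAGCTG at base -211), and Sox1 and Sox2 had none. Of the 250 bases searched for Sox1, 224 lie inside the gene as GENCODE annotates it and 26 lie before its annotated start. Of 32851 promoters of the same length searched on both strands, 66.2% had CANNTG, 13.0% CAGCTG and 17.2% CAGGTG, the form that E47 is known to prefer, which none of the 6 windows held. The octamer was in 1.60% of promoters. CCAAT, the box bound by NF-Y, was in 33.8% of promoters and in the windows of Sox1, Sox2, Sox4, Sox11 and Sox12, with 4 matches in Sox4. The letters ACAAT, the core of a Sox site, were in 27.7% of promoters and in none of the 6 windows. Elements outside these windows were not examined.

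The other Sox genes gave a frame for these values. Of 13 listed, 8 were tested, and 3 were called higher at 24 h by limma (2.07% of all genes tested were), with a median log2 fold-change of 0.65 against 0.0040 over all genes tested. All were low: Sox9, of neural crest and glia, was at 0.0398±0.0429 FPKM at 0 h and 0.248±0.117 at 24 h (log2 fold-change 1.30, adjusted p=0.0464 by limma), and it passed the filter only through its libraries with dox. Sox8, of the same subgroup, went from 0.114±0.0516 to 0.388±0.0993 FPKM (1.19, adjusted p=0.0270). Sox18, an endothelial gene, went from 0.440±0.202 to 1.09±0.277 FPKM (1.18, adjusted p=0.0373). Leaving out 1 library ended the call in 4 of 9 fits for Sox8 (adjusted p up to 0.0875 without 24 h replicate 2), in 6 for Sox18 (up to 0.0953, also without 24 h replicate 2) and in 7 for Sox9 (up to 0.152 without 24 h replicate 3). At 18 h 0 of the 8 were called by limma, with 3 at an unadjusted p under 0.05 (Sox8, Sox15 and Sox10), against 25.4% of all genes. Of these Sox10 was lower, with 0.398±0.106 FPKM at 0 h and 0.169±0.0144 at 18 h (log2 fold-change -0.87, adjusted p=0.0956 by limma). At 24 h Sox10 was at 0.262±0.0991 FPKM (-0.48, adjusted p=0.303). With the replicate block, and by edgeR and DESeq2, 1 of the 8 was called higher at 18 h (against 1.71%, 1.99% and 1.82% of all genes). This was Sox15, which shares functions with Sox2 in ESCs (3.68±0.557 FPKM at 0 h and 7.88±2.94 at 18 h, adjusted p=0.0120 with the block). At 24 h Sox15 was at 7.44±2.87 FPKM (log2 fold-change 0.94, adjusted p=0.0714 by limma and 0.0134 with the block). At that time edgeR called 4 of the list higher, Sox15 among them, and DESeq2 called 3, without it (against 2.81% and 2.56% of all genes).

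Of 9 POU and Pax6 partners of SoxB1 proteins listed, 7 were tested and 0 were called at 2-fold at either time by limma, edgeR or DESeq2, with 2 at an unadjusted limma p under 0.05 at each time (Pou5f1 and Pou3f4), against 25.4% of all genes at 18 h and 28.2% at 24 h, and the median log2 fold-change at 24 h was 0.01. Pou5f1, the ESC partner of Sox2, was the only one past the adjusted p at 24 h and fell by less than 2-fold, from 371±53.3 to 248±33.4 FPKM at 24 h (log2 fold-change -0.58, adjusted p=0.0220 by limma, and 0.0865 without 24 h replicate 3). Pou3f1 (Oct6), a partner in early neural cells, was at 32.6±3.88 FPKM without dox and at 28.2±2.89 and 29.4±1.38 FPKM after 18 h and 24 h. With the block 2 of the genes were lower at 18 h by less than 2-fold, Pou5f1 (adjusted p=0.126 by limma without the block and 0.00149 with it) and Pou3f1 (0.230 and 0.0484), against 10.7% of all genes. Pax6 was at 0.347±0.0310 FPKM at 0 h and 0.350±0.0662 at 24 h. Pou3f2 and Pou3f3 were below the filter.

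Known targets of Sox2 with Oct4 in ESCs moved in both directions. Of 6 genes, all tested, 1 was called lower at both times, where 0.724% and 0.836% of all genes were. This was Fgf4, with 16.8±4.98 FPKM without dox and 8.06±2.06 and 6.98±1.97 FPKM after 18 h and 24 h (log2 fold-change -1.25 at 24 h, adjusted p=0.0170 by limma, and 0.0705 without 24 h replicate 3). Its adjusted p at 18 h was 0.0405 by limma, and leaving out 1 library brought it above 0.05 in 6 of 9 fits, with up to 0.138 without 18 h replicate 3. The absolute log2 fold-change at 18 h went as low as 0.809 in such fits, under 2-fold. Nanog (73.4±8.12 FPKM at 24 h, log2 fold-change 0.86, adjusted p=0.00735) and the Nodal antagonist Lefty1 (45.3±3.82 FPKM at 0 h and 79.9±20.9 at 24 h, 0.79, adjusted p=0.0209, and 0.0706 without 0 h replicate 1) rose by less than 2-fold. The median of the list at 24 h was -0.05. Utf1, Fbxo15 and Zscan10 did not pass the test, but with the replicate block Utf1 was lower at 24 h (log2 fold-change -0.38, adjusted p=0.207 without the block and 0.0132 with it).

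Of 10 neural genes that SoxB1 proteins are known to regulate, 8 were tested, and 2 were called higher at 24 h by limma, edgeR and DESeq2, against 2.07% of all genes by limma. The Hedgehog effector Gli2 was at 1.98±0.226 FPKM without dox and at 4.20±0.574 and 4.77±0.850 FPKM after 18 h and 24 h (log2 fold-change 1.22 at 24 h, adjusted p=0.00229 by limma), and it was called at 18 h as well. With 1 library left out, its log2 fold-change went as low as 0.945 at 18 h, under 2-fold, and 1.11 at 24 h. Fabp7, a lipid-binding protein of radial glia, went from 0.387±0.122 to 0.983±0.129 FPKM at 24 h (1.18, adjusted p=0.0105). Its log2 fold-change went as low as 0.974, under 2-fold, with 1 library left out, where its adjusted p reached 0.0491 by limma. Notch1 rose by less than 2-fold, from 3.12±0.495 to 4.31±0.164 FPKM (0.47, adjusted p=0.0304). That adjusted p exceeded 0.05 in 7 of the 9 fits that leave out 1 library, with up to 0.101 without 24 h replicate 3. Nes, which encodes nestin, was at 36.0±7.11 FPKM at 0 h and 47.1±10.8 at 24 h (adjusted p=0.270 by limma, and 0.00543 with the block). The block also brought Mycn under the threshold, as lower at 24 h (log2 fold-change -0.41, adjusted p=0.186 without the block and 0.0114 with it), and the cadherin gene Cdh2, as higher (0.30, 0.270 and 0.0405). With the block 5 of the 8 were thus higher at 24 h and 1 lower at any fold, against 13.6% and 12.5% of all genes. The list's median was 0.42 at 24 h. Six3 and Rax, of the anterior neural plate, were below the filter.

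Of 5 genes that SoxC proteins are known to act on, 4 were tested and 1 was called, higher at both times, where 1.33% and 2.07% of all genes were. Prox1, a homeodomain gene of neural progenitors leaving the cell cycle, passed the filter only through its libraries with dox. It was at 0.0749±0.0213 FPKM without dox and at 0.362±0.0261 and 0.556±0.0204 FPKM after 18 h and 24 h (log2 fold-change 1.91 at 24 h, adjusted p=0.00110 by limma). Tubb3, of new neurons, was at 41.5±6.49 FPKM at 0 h and 63.1±14.6 at 24 h (adjusted p=0.0638 by limma, and 0.000739 with the block). Stmn2, a neuron marker outside this list, went the other way. It was at 27.9±1.61 FPKM at 0 h and 23.2±1.84 at 24 h (adjusted p=0.0596 by limma, and 0.00527 with the block). Dcx was below the filter. The list's median at 24 h was 0.45.

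Markers of other cell types were read beside these values. Of 8 neural progenitor markers, 3 were tested and 0 were called at 24 h by limma, with 0 at an unadjusted p under 0.05, against 28.2% of all genes. edgeR and DESeq2, which tested more genes, each called 1 higher, against 2.81% and 2.56% of all genes (Pax3, at 0.0232±0.0102 FPKM at 0 h and 0.168±0.0398 at 24 h). The summed level of the list was 29.3 to 43.5 FPKM at 0 h and 35.9 to 54.8 at 24 h, nearly all of it Nes. Six3 was under 0.1 FPKM in every library at 24 h. Trophectoderm and extraembryonic ectoderm, where Sox2 is also expressed, had 3 of 6 tested markers called higher at both times by limma, against 1.33% and 2.07% of all genes, and the summed level was 324 to 377 FPKM at 0 h and 624 to 824 at 24 h. Nearly all of this was the simple-epithelium keratins Krt8 (175±13.8 FPKM at 0 h and 410±64.8 at 24 h) and Krt18 (170±14.6 and 289±36.9). Cdx2 was at 0.476±0.218 FPKM at 0 h and 3.44±0.684 at 24 h, and Hand1 at 1.22±0.385 and 11.6±0.764, while Elf5 was under 0.1 FPKM in every library and Tpbpa was at 0. Of 5 neural crest markers tested, 2 were called higher (Sox9 and Tfap2a) and 1 lower (Foxd3) at 24 h by limma, against 2.07% and 0.836% of all genes, with a highest summed level of 12.9 FPKM at 0 h and 10.3 at 24 h. Sox9 passed the filter only through its libraries with dox, and 7 of the 9 fits that leave out 1 library ended its call. In such fits the absolute log2 fold-change went as low as 0.996 for Tfap2a, under 2-fold, and 1.04 for Foxd3. Of the 8 ESC markers 0 were called at either time by limma, edgeR or DESeq2, with 4 at an unadjusted limma p under 0.05 at 18 h and 2 at 24 h (Pou5f1 and Nanog), against 25.4% and 28.2% of all genes. With the block 2 of them were higher at both times (Nanog and Klf4), against 10.8% of all genes at 18 h and 13.6% at 24 h with an adjusted p of at most 0.05 at any fold. Lower with the block were 4 at 18 h (Pou5f1, Tfcp2l1, Dppa5a and Tbx3) and the first 3 of these at 24 h, against 10.7% and 12.5% of all genes, and all of these changes were under 2-fold. None of the endoderm, mesendoderm, neuron or fibroblast markers was called by limma at 24 h (2 of 6, 1 of 4, 4 of 6 and 1 of 4 tested were at an unadjusted p under 0.05, against 28.2% of all genes). edgeR and DESeq2 called 1 neuron marker lower, against 1.25% and 1.06% of all genes (Rbfox3, at 0.224±0.0747 FPKM at 0 h and 0.0842±0.0336 at 24 h), and 1 mesendoderm marker, Gsc, was called higher by edgeR but not by DESeq2, and by limma once the replicate block was added (adjusted p=0.0416), against 2.34% of all genes. With the block T (brachyury) was lower at both times, with 1.27±0.479 FPKM without dox and 0.899±0.546 and 0.636±0.260 FPKM after 18 h and 24 h (log2 fold-change -0.90 at 24 h, adjusted p=0.217 by limma without the block and 0.00713 with it). Also lower with the block at both times, by less than 2-fold, were Amn (endoderm), Stmn2 (neuron) and Thy1 (fibroblast). With the block the neuron marker Elavl3 was lower at 18 h (adjusted p=0.0341), and Tubb3 was higher at both times. Without the block, Stmn2 at 18 h (adjusted p=0.0231 by limma) and Thy1 at 24 h (0.0494) were also lower by less than 2-fold. Gsc, which passed the filter on FPKM only through its 24 h libraries, was at 0.0110±0.0190 FPKM at 0 h and 0.203±0.127 at 24 h. The part of these cell types in the changes of the Sox genes was not tested.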

How the data were processed

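Libraries were assigned to 0 h, 18 h and 24 h by the sample titles and treatment entries. The treatment protocol text in the labels speaks of 24 h and 48 h, which the titles do not. The authors made strand-specific libraries of polyadenylated RNA, trimmed reads with cutadapt 1.9 (submitters' processing notes), aligned them to GRCm38 with STAR and deposited FPKM values for 47729 genes (19906 of them at 0 throughout). For 19210 genes the authors also deposited a signal, namely CPM adjusted for effective library size. The fold-changes and p-values of their own edgeR 3.16.5 comparisons, held in the same table, were not used. How strand and multiply aligned reads entered the counts is not given in the sources used here.

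Read numbers were recovered by dividing the signal by its value for 1 read in that library, and 100% of values came out whole (within 0.1 of a read). The main test was limma 3.58.1 (lmFit, eBayes with an intensity trend, R 4.3.3) on log2(FPKM+0.1) over the 17951 genes whose mean FPKM reached 0.1, fitted to all 9 libraries, with Benjamini-Hochberg adjustment over all genes. A call needed an adjusted p of at most 0.05 and at least 2-fold, as in the study's methods. A legend of the study gives a log2 fold-change of 2 instead, which was an alternative. edgeR 4.0.16 (quasi-likelihood) and DESeq2 1.42.0 on the recovered reads, 2 pseudocounts, 2 filters, 2 normalizations, no trend, only the times compared, the replicate block and each library left out in turn were alternatives. The fits were tested on simulated data. With 3 against 3 an exact two-sided permutation test cannot go below 0.1, so none is given, and p-values measure the spread between these libraries.

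The replicate numbers were taken to pair the libraries, because the study speaks of 3 biological experiments sampled over time and same-numbered libraries deviated together from their time point (mean r=0.325, range 0.211 to 0.548 over 9 pairs and 11893 genes, against a mean of -0.161 over 18 pairs of different numbers). The second mean is largely set by the first, because deviations were taken from the mean of each time point, and is no separate evidence. No replicates were alike within sampling noise (chi-square over degrees of freedom of at least 5.79). Named are the 7 genes, up to 4 genes per list (the largest changes among those called, otherwise the highest levels), overlapping genes and the 3 most similar genes by r. Genes below the filter, marker genes and others outside this rule were named after their values were seen. Members and lists were chosen with earlier results of these data known. Positions come from GENCODE M21, which held 47224 of the genes, and promoters from RefSeq. No per-sample column was left unmatched. Tables were handled with pandas 2.3.3 and plots drawn with matplotlib 3.10.9 in Python 3.11.15.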

Additional observations from a re-analysis of the deposited data

How the results depend on the processing

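The higher calls of Sox1 and Sox21 at 24 h and the absence of 2-fold falls were compared across all alternatives. The count of genes called higher at 18 h was 0 in the main test and became 1, Sox1, with the replicate block, with edgeR with and without the block, with DESeq2, with limma on the scaled CPM, with the filter at a mean FPKM of 1 and with a pseudocount of 0.01. At 24 h the count of 2 higher became 1 with the filter at a mean FPKM of 1, which removes Sox21 from the test, with a pseudocount of 1 and with a minimum log2 fold-change of 2. With no minimum fold the count of lower genes became 2 at 18 h and 2 at 24 h (Sox11 and Sox12). At 24 h versus 18 h the count of higher genes became 1 (Sox1) with edgeR and the replicate block. Leaving out single libraries, the count of higher genes ranged from 0 to 1 at 18 h (1 without 0 h replicate 3 or 24 h replicate 1) and from 1 to 2 at 24 h (1 without 0 h replicate 3 or 24 h replicate 3). Apart from the calls of Sox1 named here, the replicate block changed no 2-fold call of a member.

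Of 459 comparisons of single genes under alternatives, 426 kept their direction and their side of the call (adjusted p and 2-fold together), 10 passed it, 3 lost it and 20 changed sign. Within the 426, the adjusted p alone rose above 0.05 in 29 (22 with 1 library left out), among them Sox11 at 18 h and 24 h with no filter (0.0612 and 0.0608), no trend (0.0663 and 0.0650) and only the times compared (0.0800 and 0.0797), and Sox12 at 18 h with the last (0.0503). It fell to 0.05 or below in 6, of which 5 were Sox21 at 18 h and 1 Sox4 at 18 h. Median centring gave -0.0034 for Sox4 at 24 h versus 0 h. Quantile normalization gave 0.019 for Sox2 and -0.0049 for Sox3 at 18 h and 0.11 for Sox2 at 24 h. With 1 library left out, the values at 18 h versus 0 h ranged from -0.15 to 0.0098 for Sox2 and from -0.098 to 0.20 for Sox3. At 24 h versus 0 h they ranged from -0.094 to 0.061 for Sox2 and from -0.043 to 0.062 for Sox4. At 24 h versus 18 h they ranged from -0.034 to 0.097 for Sox11, from -0.064 to 0.26 for Sox3, from -0.025 to 0.13 for Sox2 and from -0.027 to 0.21 for Sox12. The cause was not tested. Depth limits Sox1 and Sox21 most, with as few as 24 and 27 reads in a library at 0 h.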
